A study of Mus musculus with 10 samples.

Results

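The potassium channel genes of the mouse were described here by where 2 proteins of the RNA polymerase III machinery and 2 histone marks lay over them in cultured cortical neurons, with and without depolarization. The members were all RefSeq protein-coding genes of build GRCm38 on chromosomes 1 to 19 whose symbols begin with Kcn. This gave 92 genes of 20665 protein-coding genes on those chromosomes. The symbol alone decided membership, but the set was chosen with earlier results of these data known.

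Potassium channels let potassium leave or enter the cell and so set the resting potential, end the action potential and shape the firing of neurons. The voltage-gated Kcna, Kcnb, Kcnc and Kcnd proteins form pores that open on depolarization, and the Kcnf, Kcng, Kcns and Kcnv proteins are silent alone and modify Kcnb pores. Kcnh and Kcnq genes encode further voltage-gated channels, Kcnma, Kcnn and Kcnt genes channels opened by calcium or sodium, counted here with their relative Kcnu1, a sperm channel opened by alkaline pH and voltage, Kcnj genes inward rectifiers and Kcnk genes the leak channels with a pair of pore domains in each subunit. Kcnab, Kcne, Kcnip and Kcnmb genes encode auxiliary subunits, and Kcnrg, a regulator of potassium channels, was counted with them. Gtf3c1 is the largest subunit of TFIIIC, which binds the B box of tRNA genes and recruits RNA polymerase III, and Rpc155 is the largest subunit of that polymerase. H3K4me1 is a histone mark of enhancers and H3K27ac one of active promoters and enhancers.

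The cells were cortical neurons from C57BL/6J mice, cultured as primary cells to day 6 in vitro and kept overnight in medium with 3% serum. One group was then depolarized by 50 mM KCl for 45 min, and the other was left untreated. High extracellular potassium depolarizes neurons and opens their voltage-gated calcium channels. Each of the 4 antibodies gave 1 deposited list of enriched regions with KCl and 1 without, so there were 8 lists. The series design states 3 biological replicates per condition, but the sources used here do not say whether they were pooled before the regions were called. With 1 list per group no difference below has a replicate check, and none was tested. No read counts come with the regions, so the depth behind them is unknown, and a gene without a region in a list is not shown to be free of the protein or mark.

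The Gtf3c1 list held 58090 regions with KCl and 66622 in untreated neurons, and the Rpc155 list 4251 with KCl and 12531 in untreated neurons. H3K4me1 had 193683 regions with KCl and 192225 in untreated neurons, and H3K27ac had 58124 with KCl and 65486 in untreated neurons. As a check of the labelled cell type, H3K27ac lay within 1 kb of an end of 9 of 9 neuronal marker genes in either condition. Of all protein-coding genes 58.2% with KCl and 53.6% untreated had H3K27ac that close. H3K27ac did so at 2 of 6 astrocyte markers with KCl and 3 of 6 untreated, and at 1 of 6 oligodendrocyte lineage markers in each condition. It did so at 0 of 5 microglial and 0 of 5 endothelial and pericyte markers. H3K4me1 separated these cell types less. In each condition it was that close to 9 of 9 neuronal, 4 of 6 astrocyte, 5 of 6 oligodendrocyte lineage and 3 of 5 endothelial and pericyte markers. Of all genes 69.2% with KCl and 68.6% untreated had H3K4me1 that close. The part of astrocytes in the results below was not tested.

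A gene was called near a region when a region of the list lay at most 5 kb from either outermost end of the gene. Both ends counted alike, and annotated starts farther inside a gene were not counted. Kcnj3, Kcnj16, Kcnk2 and Kcnip1 were thus not near H3K27ac, although it lay at an inner annotated start of each in both lists. Most potassium channel genes were near H3K4me1, H3K27ac and Gtf3c1, and few were near Rpc155. H3K4me1 lay near 88 of 92 with KCl (95.7%, exact 95% interval 89.2 to 98.8%) and near 85 in untreated neurons (92.4%, 84.9 to 96.9%), against 78.3% and 78.2% of all protein-coding genes. H3K27ac lay near 68 members with KCl (73.9%, 63.7 to 82.5%) and near 64 in untreated neurons (69.6%, 59.1 to 78.7%), against 65.0% and 61.4% of all genes. For both marks the share of the channel genes was the larger in either condition. Gtf3c1 lay near 58 members with KCl (63.0%, 52.3 to 72.9%) and near 60 in untreated neurons (65.2%, 54.6 to 74.9%), against 56.5% and 57.4% of all genes. Rpc155 lay near 13 members with KCl (14.1%, 7.74 to 23.0%) and near 32 in untreated neurons (34.8%, 25.1 to 45.4%), against 12.5% and 30.2% of all genes. The interval of the members lies above the share of all genes for H3K4me1 and holds it for the other 3 antibodies, in both conditions. Split by gene length, the H3K4me1 interval lay above the share of all genes only under 20 kb. There it was 80.3 to 99.3% with KCl and 76.3 to 98.1% untreated, against 68.1% and 68.4%. Of the calcium, sodium and HCN channel genes described below, 94.3% were near H3K4me1 in either condition. The intervals cover counting error only.

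Counting only regions of fold enrichment 6 or more, H3K4me1 lay near 71 members with KCl and 62 untreated, against 60.7% and 56.3% of all genes. Fold enrichment is the peak caller's ratio of the signal at a region's summit to the local background; it is the authors' value and was not scaled between lists. Gtf3c1 regions of that strength lay near 12 members with KCl (13.0%) and 13 untreated (14.1%), against 13.5% and 9.64% of all genes. Rpc155 regions of that strength lay near 3 with KCl and 2 untreated, against 1.43% and 1.4%. Most members near Gtf3c1 were near it in both lists. In the KCl list alone it was near 4, Kcnc4, Kcnh1, Kcnk18 and Kcnt2, against 5.27% of all genes, and in the untreated list alone near 6, Kcnab1, Kcnc2, Kcng1, Kcnk7, Kcnk15 and Kcnv2, against 6.19%. These lists describe the gene ends only. Between the ends Gtf3c1 covered less of Kcnc4 (0.9% with KCl, 1.14% untreated), Kcnh1 (0.496% and 1.18%) and Kcnt2 (0.321% and 0.837%) with KCl. It covered none of Kcnk18 in either list.

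**Figure D1:**
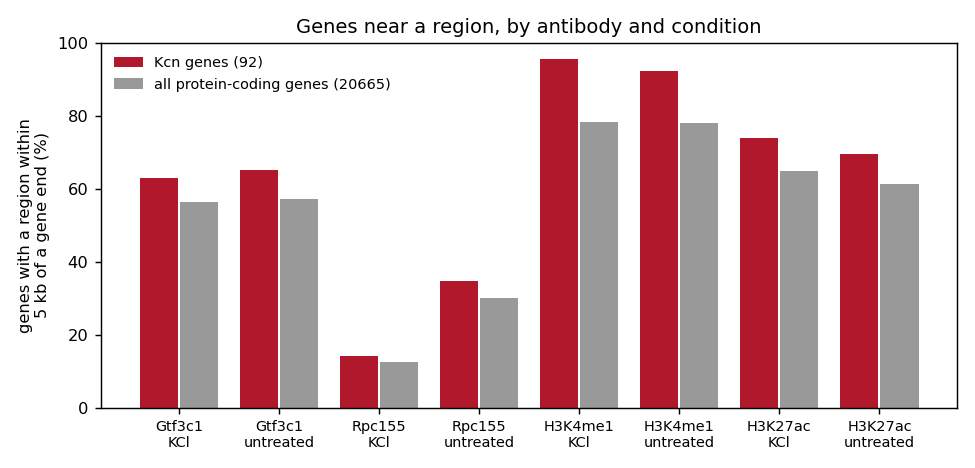
Share of genes, in percent, with a region of each list within 5 kb of a gene end, for the 92 potassium channel genes (red) and all 20665 protein-coding genes (grey), with KCl left of untreated for each antibody. The red bars are highest for H3K4me1 (95.7% with KCl, 92.4% untreated) and lowest for Rpc155 (14.1% with KCl, 34.8% untreated).

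The channel genes are long, with a median of 34.5 kb against 17.5 kb for all genes, and 25.0% of them exceed 100 kb against 11.2% of all genes. A longer gene holds more sequence in which a region can be called, so coverage was also read as the body share, the percentage of the bases between the gene's ends that regions cover. The mean body share of the 92 members for Gtf3c1 was 3.22% with KCl and 4.18% in untreated neurons, whereas over all genes it was 5.12% with KCl and 4.43% untreated. For H3K27ac the members' mean was 8.60% with KCl and 7.43% untreated, against 9.20% and 6.85% over all genes. The order of the mean values for Gtf3c1 was therefore the reverse of that over all genes, while for H3K27ac it was the same. The median H3K27ac body share, in contrast, was 2.75% with KCl and 2.96% untreated over the members, against 2.59% and 1.71% over all genes, and H3K27ac covered 3.45% of the members' bases with KCl and 3.82% untreated, against 4.63% and 4.30%. For H3K4me1 the means were 20.5% with KCl and 20.2% untreated (all genes 14.6% and 14.1%), and for Rpc155 they were 0.093% with KCl and 0.774% untreated (all genes 0.272% and 0.790%).

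With KCl, Gtf3c1 covered less of most channel genes that it covered at all. Its body share was lower with KCl at 52 of 92 members, higher at 14 and equal at 26, which had no Gtf3c1 region in the body in either list. Over all genes 31.3% were lower and 29.7% higher. In the bodies of the members Gtf3c1 had 317 regions with KCl and 423 in untreated neurons, covering 132.6 kb with KCl and 190.6 kb untreated of 10666.5 kb. Over all gene bodies there were 44803 regions with KCl and 45510 untreated. The untreated list is the longer, and cut to the length of the KCl list it left 366 regions and 175.0 kb in the members. The body share was then lower with KCl at 46 members and higher at 19, against 27.8% and 32.6% of all genes. Of the untreated Gtf3c1 regions in the members 39.0% overlapped a region of the KCl list by at least 1 bp, against 48.1% over all gene bodies.

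The lower Gtf3c1 coverage was most common among the long members. Above 100 kb the body share was lower with KCl at 21 of 23 members (91.3%) and higher at 2, against 65.2% lower and 29.4% higher of all genes of that length. Between 20 and 100 kb it was lower at 21 of 35 and higher at 6, against 37.6% and 36.9% of all genes. Below 20 kb it was lower at 10 of 34 members and higher at 6, against 20.1% and 25.1%. The share of genes with lower coverage thus grew with length among all genes as well, and in each class it was larger among the channel genes. These counts by length use the full lists, of which the untreated one is the longer. They were not repeated with equal list lengths. Leaving out 2 kb at each end, which is possible for 86 members, the remaining body had a lower Gtf3c1 share at 40 and a higher one at 14, against 29.8% and 19.5% of all genes long enough.

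**Figure D2:**
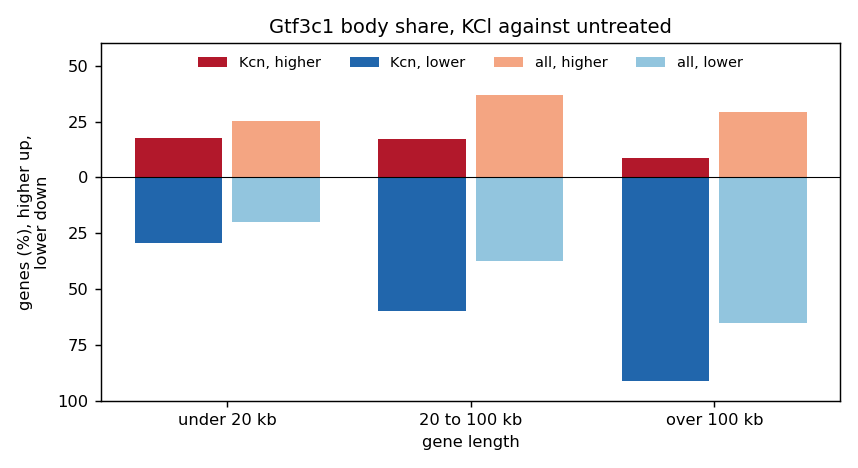
Percentage of genes whose Gtf3c1 body share was higher (upward bars) or lower (downward bars) with KCl than in untreated neurons, for potassium channel genes (dark) and all protein-coding genes (light) in 3 classes of gene length. The downward bar of the channel genes over 100 kb reaches 91.3%, against 65.2% for all genes of that length. The full lists were used, not cut to equal length.

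The voltage-gated pore-forming genes held the largest single difference. Kcna1, which encodes a Shaker-type channel of axons (chr6:126636463-126645801), had 7.29% of its body under Gtf3c1 with KCl and 24.8% in untreated neurons, and its strongest nearby region had a fold enrichment of 4.65 with KCl and 9.31 untreated. H3K27ac over the same gene covered 41.8% with KCl and 34.1% untreated, so that the mark and the factor differed in opposite directions. Of the 16 genes of this group 9 had a lower and 4 a higher Gtf3c1 body share. The higher ones included Kcna4, which carries a rapidly inactivating current, with 4.82% with KCl and 0.685% untreated. Kcna3, whose whole body of 1968 bp lay inside an H3K27ac region in both conditions, had 52.7% under Gtf3c1 with KCl and 57.7% untreated. Kcnd3, a pore of the transient A-type current, had 3.43 kb under Gtf3c1 with KCl and 7.51 kb untreated.

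The leak channels of the Kcnk group differed in a single direction in coverage. The Gtf3c1 body share was lower with KCl at 10 of 14 and higher at 0, and the other 4 had no Gtf3c1 region in their bodies. The group's mean was 1.66% with KCl and 4.41% untreated. Kcnk3, an acid-sensitive background channel, had 3.23% with KCl and 9.09% untreated, Kcnk1 had 3.02% with KCl and 7.97% untreated, and Kcnk9, a relative of Kcnk3, had 0.914% with KCl and 5.07% untreated. The strongest region near some of these genes was nevertheless stronger with KCl. At Kcnk1, a weakly conducting leak channel, the region that holds an annotated start (chr8:125994973-125996090) had a fold enrichment of 23.3 with KCl, the highest of any Gtf3c1 region near a member, and 8.06 untreated; the KCl summit lay 89 bp from that start. At Kcnk3 the region at the gene's lower end (chr5:30587626-30588218) had 19.6 with KCl and 6.80 untreated. At both genes the untreated list held 4 regions within 5 kb of an end and the KCl list 2.

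The same combination was found at Kcnn2 and Kcnn3, which encode small-conductance calcium-activated channels. The Gtf3c1 body share was lower with KCl at 4 of the 4 Kcnn genes. The fold enrichment at Kcnn3 (chr3:89521184-89521969) was 13.5 with KCl and 5.19 untreated, and at Kcnn2 it was 10.4 with KCl and 5.01 untreated. At Kcnn1, the third small-conductance channel, the strongest nearby regions, with 7.0 with KCl and 4.12 untreated, were different sites, the first with its summit 247 bp from an end of the neighbour Arrdc2 and the second 1272 bp from an end of Ccdc124. At the region that both lists held there, the fold enrichment was 3.95 with KCl and 3.94 untreated. Kcnn4, the intermediate-conductance channel known from blood cells and epithelia, had no Gtf3c1 region within 5 kb in either list. Of the 8 genes of the group 7 had a lower Gtf3c1 body share with KCl, and Kcnu1 had 0.279% with KCl and 0% untreated. Kcnma1, the pore of the large-conductance calcium-activated channel, had a strongest nearby region of 2.31 with KCl and of 7.85 untreated, at opposite ends of the gene. The untreated one overlapped no KCl region, and at the site of the KCl one the untreated region had 2.84.

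Over the 54 members with a Gtf3c1 region nearby in both lists, the median ratio of the strongest fold enrichment, KCl over untreated, was 1.02, against 1.08 over all genes. It was at least 1.5 at 9 members, against 14.1% of all genes near a region in both lists, and at most the inverse of 1.5 at 6, against 6.0%. The strongest region of a gene need not be the same site in both lists: the pair overlapped at 34 of the 54 members, at 7 of the 9 and at 4 of the 6. Among the 9 were Kcnk1, Kcnk3, Kcnn1, Kcnn2, Kcnn3, Kcnab2, Kcnip4 and Kcnh6. Kcnab2, an auxiliary subunit of Shaker-type channels, had 20.8 with KCl and 9.57 untreated, in a region whose summit lay 491 bp outside the gene and 1334 bp from the neighbour Nphp4. Kcnip4, a calcium-binding subunit of Kcnd channels and with 1135.6 kb the longest member, had 16.5 with KCl and 9.26 untreated at its upper end. The 6 were Kcnma1, Kcnc1, Kcna1, Kcng4, Kcnip1 and Kcnj4. The pair did not overlap at Kcnn1 and Kcnh6 among the 9 and at Kcnma1 and Kcnc1 among the 6. At the site of its strongest untreated region Kcnc1, a channel of fast-firing neurons, had 3.23 with KCl and 8.77 untreated. Kcng4, a modifier subunit, had 7.20 with KCl and 13.4 untreated.

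**Figure D3:**
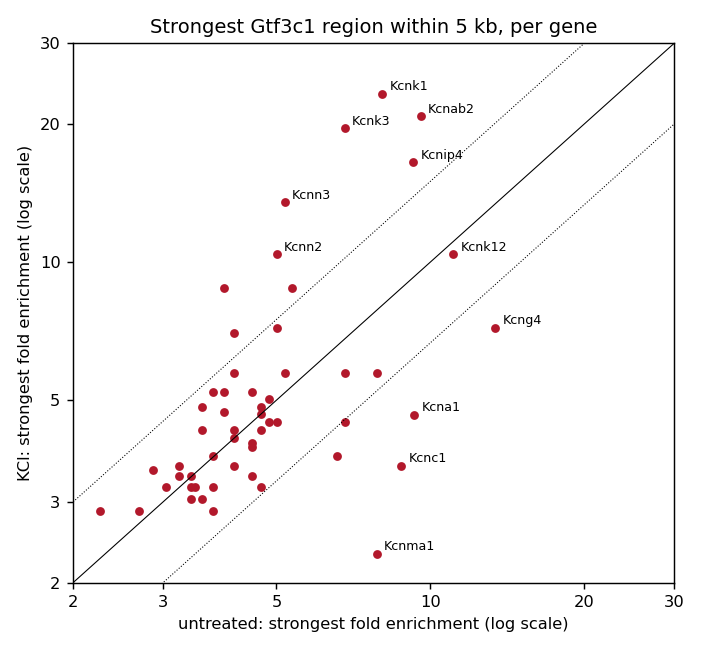
Fold enrichment of the strongest Gtf3c1 region within 5 kb of each of the 54 potassium channel genes that had one in both lists, with KCl on the vertical and untreated on the horizontal axis, both logarithmic. The solid line marks equal values and the dotted lines a ratio of 1.5, and at 20 of the genes the plotted regions of the lists do not overlap; Kcnk1 (23.3 with KCl, 8.06 untreated) lies highest and Kcnma1 (2.31 with KCl, 7.85 untreated) lowest.

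Among the inward rectifiers Gtf3c1 coverage was lower with KCl at 5 of 15 and higher at 2. Kcnj9, a subunit of the G protein-activated channels (chr1:172320508-172329322), had 3.05% with KCl and 15.1% untreated, while its H3K27ac share was 52.4% with KCl and 50.9% untreated. Kcnj9 and Kcna1 were the only members whose Gtf3c1 share differed by at least 10 percentage points, and both were lower; 2.08% of all genes were lower and 4.23% higher by as much. The next largest difference was at Kcnk7, whose share was 0% with KCl and 6.89% untreated. Kcnj6, another G protein-activated subunit, had 3.15 kb under Gtf3c1 with KCl and 6.72 kb untreated. Kcnj2, a strong inward rectifier, was higher with KCl, with 16.7% and 12.1% untreated. Kcnj10, an inward rectifier best known from astrocytes, had no Gtf3c1 in its body in either list.

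Of the 5 Kcnq genes 3 had a lower and 1 a higher Gtf3c1 share. Kcnq3, a subunit of the M channel, which restrains repeated firing, had 1.19 kb under Gtf3c1 with KCl and 5.37 kb untreated. Among the 8 ether-a-go-go type genes 6 were lower and 2 higher. The exception in size was Kcnh6, an erg-type channel, with 8.56% with KCl and 0% untreated, beside an H3K27ac share of 13.4% with KCl and 5.99% untreated. Of the 10 modifier genes 5 were lower and 2 higher, and Kcnf1, a short gene of 4789 bp, had the largest shift upward, with 53.1% with KCl and 44.5% untreated. Of the 16 auxiliary genes 7 were lower and 2 higher, with Kcnab2 at 7.73% with KCl and 4.73% untreated.

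Rpc155 was listed near fewer channel genes with KCl, as it was near fewer genes of any kind. Of the 32 members near it in untreated neurons 71.9% had no Rpc155 region nearby in the KCl list, against 70.8% of all genes near it in untreated neurons. The body share was lower with KCl at 40 members and higher at 4, against 24.4% and 5.33% of all genes. These counts rest on the longer untreated list: with both lists cut to the same length, Rpc155 lay near 13 members with KCl and 6 untreated, against 12.5% and 11.4% of all genes, and the body share was lower at 16 and higher at 8, against 9.29% and 7.66%. Near regions occurred in the KCl list alone at 4 members (3.7% of all genes) and in the untreated list alone at 23 (21.4%). The body share was at least 10 points lower with KCl at 1 member, Kcna3, with 0% with KCl and 15.8% untreated (1.3% of all genes), and as much higher at 0 (0.223%). Of the 9 members near Rpc155 in both lists the strongest fold enrichment was at least 1.5 times higher with KCl at 1, Kcnk1, where the regions do not overlap, against 8.94% of all such genes, and as much lower at 0, against 4.61%.

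The 13 members near Rpc155 with KCl included Kcnab2, Kcnab3, Kcnip4, Kcnj6, Kcnj9, Kcnk1, Kcnk10, Kcnk12, Kcnma1, Kcnn1, Kcnn2 and Kcnn3. Kcnj6, Kcnn2 and Kcnn3 were among those near it in the KCl list alone. In the gene bodies Rpc155 nevertheless covered less with KCl at Kcnn2 (0 kb, untreated 0.489 kb) and Kcnn3 (0.696 kb, untreated 2.09 kb). It covered more at Kcnj6 (1.22 kb with KCl, 0.758 kb untreated). Kcnn2 had the highest fold enrichment of these, 8.90 with KCl, in a region whose summit lay 665 bp from the gene's end and outside the gene, within the Gtf3c1 region described above. Kcnn3 had 4.90 with KCl, also at its Gtf3c1 region, and Kcnj6 had 3.63. At Kcnk1 the Rpc155 region with KCl had 8.54, and its summit lay 1 bp from that of the strongest Gtf3c1 region; the untreated region nearby, with 3.40, did not overlap it. Kcnip4 had 6.72 with KCl and 6.96 untreated, at overlapping positions. Kcnn1 had 5.45 with KCl and 7.64 untreated, next to Arrdc2. The strongest Rpc155 sites near channel genes were thus divided between a site listed with KCl alone (Kcnn2), one with no overlapping untreated region (Kcnk1) and sites listed at similar strength in both conditions (Kcnip4). In the bodies of the members there were 18 Rpc155 regions with KCl and 81 untreated. Of the 18 all overlapped an H3K27ac region with KCl and 72.2% a Gtf3c1 region, against 92.1% and 83.8% over all gene bodies. Of the 81 untreated ones 75.3% overlapped an untreated H3K27ac region and 77.8% a Gtf3c1 region, against 86.1% and 79.1% over all gene bodies.

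RefSeq promoter windows, reaching 250 bases before to 50 after an annotated start, were at hand for 68 of the 92 members, with 93 windows. Rpc155 lay on a window of 3 of these genes with KCl and of 6 untreated (4.41% and 8.82%), against 4.37% and 16.2% of all genes with a window. The windows of Kcnk1, Kcnma1 and Kcnj9, which are the 3 with KCl, are printed to show where on the window the polymerase was listed. That of Kcnh1, a pore of the ether-a-go-go type, is printed to show a window listed in untreated neurons alone. Each reads 5′ to 3′ along the gene from RefSeq GRCm38.p6, and capitals mark the bases inside the Rpc155 region, of the KCl list for the first 3 and of the untreated list for Kcnh1. The windows are chr8:125994852-125995151 (plus strand) for Kcnk1, chr14:24004156-24004455 (minus strand) for Kcnma1, chr1:172329273-172329572 (minus strand) for Kcnj9 and chr1:192190527-192190826 (plus strand) for Kcnh1.
Kcnk1: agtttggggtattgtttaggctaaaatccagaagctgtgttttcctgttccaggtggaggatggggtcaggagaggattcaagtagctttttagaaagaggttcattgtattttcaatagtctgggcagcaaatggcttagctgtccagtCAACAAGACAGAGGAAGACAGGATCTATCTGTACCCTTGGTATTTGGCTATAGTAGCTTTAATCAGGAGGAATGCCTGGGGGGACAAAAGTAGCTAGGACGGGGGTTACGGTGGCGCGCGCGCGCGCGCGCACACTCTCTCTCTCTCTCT
Kcnma1: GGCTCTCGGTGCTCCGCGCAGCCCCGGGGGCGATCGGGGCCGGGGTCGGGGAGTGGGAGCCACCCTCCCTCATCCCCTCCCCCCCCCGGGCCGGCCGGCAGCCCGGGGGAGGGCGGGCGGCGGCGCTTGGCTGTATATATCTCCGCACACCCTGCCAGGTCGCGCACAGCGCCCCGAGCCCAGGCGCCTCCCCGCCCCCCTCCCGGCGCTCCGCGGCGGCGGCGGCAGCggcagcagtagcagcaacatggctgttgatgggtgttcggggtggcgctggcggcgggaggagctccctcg
Kcnj9: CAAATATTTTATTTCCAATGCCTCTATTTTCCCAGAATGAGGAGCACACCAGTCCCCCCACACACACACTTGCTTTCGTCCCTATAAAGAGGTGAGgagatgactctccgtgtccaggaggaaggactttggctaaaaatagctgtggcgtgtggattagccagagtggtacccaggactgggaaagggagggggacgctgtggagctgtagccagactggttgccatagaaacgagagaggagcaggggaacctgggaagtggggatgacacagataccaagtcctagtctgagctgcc
Kcnh1: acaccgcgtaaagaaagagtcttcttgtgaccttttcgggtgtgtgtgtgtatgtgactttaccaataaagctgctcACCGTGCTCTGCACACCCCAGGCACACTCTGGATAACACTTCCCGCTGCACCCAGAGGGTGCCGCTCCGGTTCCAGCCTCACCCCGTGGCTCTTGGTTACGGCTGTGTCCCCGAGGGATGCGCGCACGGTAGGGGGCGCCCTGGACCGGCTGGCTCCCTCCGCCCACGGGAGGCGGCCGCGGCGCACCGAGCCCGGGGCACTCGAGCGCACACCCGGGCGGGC
In Kcnk1 the last 150 bases lay inside the region, in Kcnma1 the first 229, in Kcnj9 the first 96 and in Kcnh1 the last 223. The annotated start lay inside the region at Kcnk1 and Kcnh1 and outside it at Kcnma1 and Kcnj9. The 4 windows differ widely in composition, with 49.0% GC at Kcnk1, 78.0% at Kcnma1, 52.3% at Kcnj9 and 66.0% at Kcnh1. The Rpc155 fold enrichment on the window of Kcnma1 was 3.09 with KCl and 3.74 untreated, on that of Kcnj9 3.81 with KCl and none listed untreated, and on that of Kcnh1 none listed with KCl and 4.58 untreated.

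Gtf3c1 lay on a promoter window of 20 of the 68 genes with KCl and of 23 untreated (29.4% and 33.8%), against 41.0% and 36.7% of all genes. H3K27ac did so at 40 with KCl and 36 untreated (58.8% and 52.9%), against 55.5% and 47.3%. H3K4me1 did so at 49 in each condition (72.1%), against 47.5% with KCl and 43.6% untreated of all genes. For H3K4me1 the share of channel genes was thus the larger in both conditions, and for Gtf3c1 the smaller. The windows of the members had a median GC content of 58.0% against 57.0% for all windows. Their median ratio of observed to expected CpG was 0.434 against 0.586, and it was at least 0.6 in 28.0% of windows against 48.9%. Searched on both strands, the cyclic AMP response element TGACGTCA was in 0 of the 93 windows, against 2.30% of all windows. The AP-1 sequence TGANTCA was in 4.30% against 7.06%, the Sp1 sequence GGGCGG in 47.3% against 47.0%, and the B box sequence GTTCNANNC in 11.8% against 8.44%. The window of Kcnh1 holds a B box match, and those of Kcnk1, Kcnma1 and Kcnj9 hold none.

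H3K27ac over the channel genes differed by gene length. The body share was higher with KCl at 40 members and lower at 30, against 49.4% and 14.7% of all genes. Above 100 kb it was lower at 14 of 23 (60.9%) and higher at 9, against 46.6% and 47.2% of all genes of that length. This count by length was not repeated with equal list lengths. Kcnq5, an M-channel subunit of 564.3 kb, had 22.7 kb under H3K27ac with KCl and 46.6 kb untreated. Kcnma1 had 23.1 kb with KCl and 36.4 kb untreated, and Kcnh7, an erg-type channel, had 7.61 kb with KCl and 15.7 kb untreated. Kcnt2, a sodium-activated channel, had 5.11 kb with KCl and 12.4 kb untreated, and Kcnh1 had 5.16 kb with KCl and 12.3 kb untreated. The untreated H3K27ac list was the longer, and with equal lengths the members held 345 regions and 368.0 kb with KCl and 357 regions and 380.4 kb untreated, beside 422 regions and 407.8 kb in the whole untreated list. Not every long member was lower: Kcnk10, a stretch- and lipid-sensitive leak channel, had 30.4 kb with KCl and 25.4 kb untreated, and Kcnn3 had 23.3 kb with KCl and 17.8 kb untreated.

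**Figure D4:**
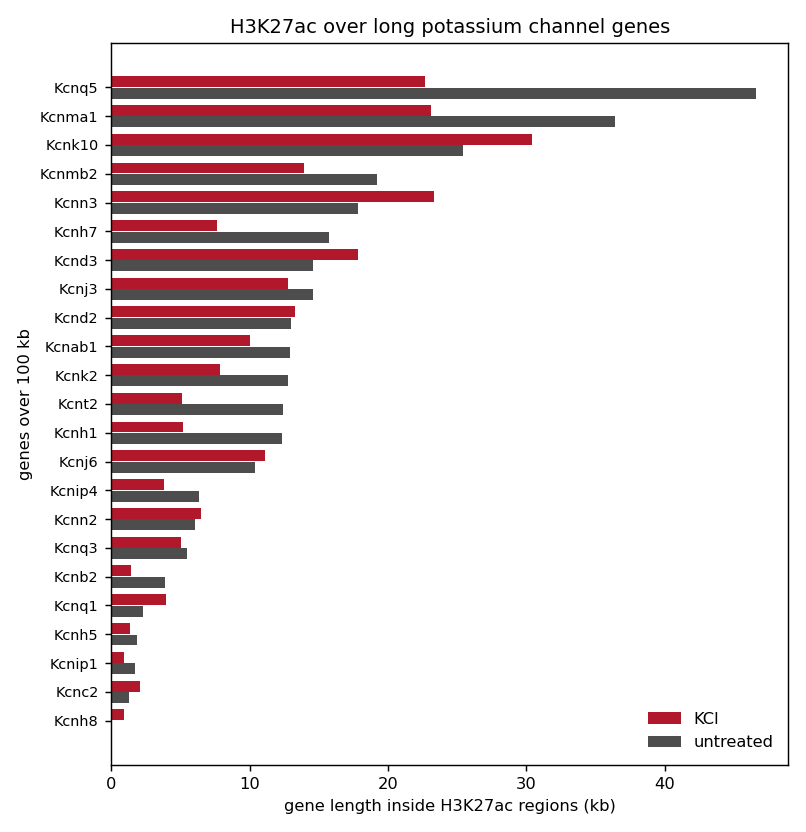
Gene length inside H3K27ac regions, in kb, for the 23 potassium channel genes over 100 kb, with KCl (red) above untreated (dark grey). Kcnq5 (22.7 kb with KCl, 46.6 kb untreated) shows the largest difference, and Kcnk10 (30.4 kb with KCl, 25.4 kb untreated) one in the other direction.

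The largest H3K27ac differences upward were in genes of at most 22.5 kb. The share was at least 10 percentage points higher with KCl at 4 members, among them Kcnf1, Kcne4 and Kcnn1, against 7.39% of all genes, and as much lower at 0, against 0.547%. Kcnf1, a modifier subunit, had 61.2% with KCl and 38.5% untreated, beside the higher Gtf3c1 share given above. Kcnn1 had 17.0% with KCl and 2.92% untreated. Kcne4, an auxiliary subunit, had 18.1% with KCl and 0% untreated. The strongest H3K27ac region near a member had a median fold enrichment ratio of 1.22, KCl over untreated, against 1.39 over all genes. The ratio was at least 1.5 at 12 of 61 members, against 38.4% of all genes, and at most its inverse at 0, against 0.669%. A region of fold enrichment 6 or more lay near 44 members with KCl and 24 untreated (47.8% and 26.1%), against 48.9% and 33.9% of all genes. The members thus shared the upward direction of H3K27ac near gene ends but held fewer large ratios than genes in general. The strongest regions of the lists overlapped at 10 of the 12. The largest ratio among these was at Kcnj10, with 9.45 with KCl and 3.98 untreated. These regions lay outside the body of Kcnj10 and off its promoter window. At Kcnk4, a leak channel opened by stretch and lipids, the strongest regions within 5 kb had 11.1 with KCl and 4.57 untreated but were different sites, and the untreated region at the KCl site had 7.75. H3K27ac was near Kcnk6, Kcnk13, Kcnk15, Kcnab1, Kcne1, Kcnmb3 and Kcnt1 in the KCl list alone, 7 members against 4.92% of all genes, and near Kcna10, Kcns1 and Kcnv2 in the untreated list alone, 3 members against 1.29%. Farther inside, Kcnab1 carried H3K27ac on a promoter window in both lists (3.92 with KCl, 3.56 untreated). Kcnt1 had a body share of 1.61% with KCl and 1.19% untreated. The bodies of the others near it in the KCl list alone held no untreated H3K27ac, and those of Kcne1 and Kcnmb3 held none with KCl either.

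H3K4me1 body shares kept the order of the genes most closely between the conditions, yet some members passed 10 percentage points. Its body share was higher with KCl at 45 members and lower at 41, against 44.2% and 31.8% of all genes. It was at least 10 points higher at Kcnj2 (65.6% with KCl, 43.6% untreated), Kcnf1 (95.6% with KCl, 79.0% untreated) and Kcnv1 (33.2% with KCl, 20.9% untreated), 3 members against 2.99% of all genes. It was as much lower at Kcna5 (22.5% with KCl, 33.5% untreated) and Kcna10 (21.4% with KCl, 32.9% untreated), 2 members against 1.25%. The strongest nearby fold enrichment was at least 1.5 times higher at 4 members, against 6.45% of all genes, and as much lower at 3, against 2.45%. The highest of these ratios was at Kcnk7, with 24.0 with KCl and 3.74 untreated, but that KCl region is 6162 bp wide with its summit 9062 bp from the gene, and the strongest untreated region it overlaps had 19. H3K4me1 was near Kcnj1, Kcnj13, Kcnj16 and Kcnk18 in the KCl list alone, 4 members against 1.39% of all genes, and near Kcnn4 in the untreated list alone, 1 member against 1.3%. Farther inside, Kcnj16 carried H3K4me1 on a promoter window in both lists (3.89 with KCl, 3.38 untreated). The bodies of Kcnj1, Kcnj13 and Kcnk18 held no H3K4me1 in either list. Across the 92 genes the rank correlation (Spearman) of the body share with KCl and untreated was 0.98 for H3K4me1, 0.86 for H3K27ac, 0.81 for Gtf3c1 and 0.33 for Rpc155. Gtf3c1 and H3K27ac body shares correlated across the members at 0.83 with KCl and 0.71 untreated. These correlations are across genes, which are not independent replicates and share the same cultures, and many genes stand at 0 in a list.

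The number of lists with a near region ranged from 0 to 8 among the members. The same count was not made over all genes, so it describes the members only. Kcnk16 and Kcnu1, known from pancreatic islets and sperm, had no region within 5 kb of an end in any of the 8 lists. Kcnj1, Kcnj13, Kcnj16, Kcnmb3 and Kcnn4 had one in 1 list. The 9 members with one in all 8 lists were Kcnab2, Kcnab3, Kcnip4, Kcnj9, Kcnk1, Kcnk10, Kcnk12, Kcnma1 and Kcnn1. Between 11.6% and 19.6% of the near regions of a list had their summits outside the member and closer to an end of another named gene, so such a region may belong to either gene.

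The 35 genes of voltage-gated calcium and sodium channels and of hyperpolarization-activated (HCN) channels were counted in the same way. Their median length was 111.1 kb. Gtf3c1 lay near 26 with KCl and 25 untreated, and its body share was lower with KCl at 20 (57.1%) and higher at 10, whereas 31.3% of all genes and 65.2% of all genes over 100 kb were lower. H3K4me1 lay near 33 in each condition (94.3%), a share close to that of the potassium channel genes. H3K27ac lay near 27 with KCl and 24 untreated, and Rpc155 near 5 with KCl and 13 untreated.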

How the data were processed

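Regions of chromatin immunoprecipitation with sequencing (ChIP-seq) were taken as the authors deposited them. The submitters' processing notes name Bowtie2, the builds GRCm38 and mm10, and MACS2, without versions. Per region the deposited lists hold a score, a fold enrichment (a ratio of summit to local background), a −log10 p-value and a −log10 q-value. The deposited q-values reach 0.05. Input libraries were not analysed here, and values of some named members are not reported here.

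Starts were converted to 1-based positions. Gene ends and promoter windows came from RefSeq tables of the same build. Near regions, body shares, the strongest fold enrichment and exact binomial (Clopper-Pearson) intervals were computed with Python 3.11.15, pandas 2.3.3, NumPy 2.4.6 and SciPy 1.17.1. The computation was checked on simulated data. The members, gene groups and rules for named genes were chosen with earlier results of these data known. Genes were named where they had the largest differences in body share or the highest fold enrichments, lay near Rpc155 with KCl, or stood on a list of neuronal channel genes. Members named beyond these, such as those of a short list or past a threshold, were chosen after their values were seen. Alternatives were a q of at most 1e-05, a fold enrichment of at least 6, equal list lengths, other distances and body definitions.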

Additional observations from a re-analysis of the deposited data

How the results depend on the processing

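Values are given with KCl before untreated. The cause of these shifts was not tested beyond what each setting removes. With a q of at most 1e-05, Gtf3c1 lay near 37 members with KCl and 44 untreated (43.6% and 42.7% of all genes), and Rpc155 near 6 with KCl and 5 untreated (4.3% and 9.17% of all genes). The mean body shares were then 1.59% (KCl) and 2.54% (untreated) for Gtf3c1. They were 0.0285% and 0.102% for Rpc155. For the marks they were 19.1% and 18.7% (H3K4me1) and 7.27% and 6.53% (H3K27ac). Members near a region in 1 list alone numbered 10 for Gtf3c1 (untreated list), 2 for Rpc155 (untreated list) and 2 for H3K4me1 (KCl list). The Rpc155 body share was lower at 15 members, against 8.02% of all genes. With a fold enrichment of at least 6, members near a region numbered 12 and 13 for Gtf3c1, 3 and 2 for Rpc155, and 44 and 24 for H3K27ac.

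With equal list lengths the mean body share was 3.84% for untreated Gtf3c1, 0.123% for untreated Rpc155, 20.4% for H3K4me1 with KCl and 7.17% for untreated H3K27ac. Rpc155 lay near 6 members untreated (11.4% of all genes), in the KCl list alone at 10 and in the untreated list alone at 3. Its body share was higher at 8 and lower at 16, against 7.66% and 9.29% of all genes, and at least 10 points lower at 0. Gtf3c1 was at least 10 points higher at 1 member. Without 2 kb at each end the mean body shares were 1.44% (KCl) and 2.18% (untreated) for Gtf3c1 and 0.0239% and 0.357% for Rpc155. For the marks they were 16.0% in each condition (H3K4me1) and 4.72% and 4.36% (H3K27ac). Within 1 kb of an end Rpc155 lay near 8 members with KCl (8.6% of all genes). Counted anywhere in the gene or its 5 kb flanks, it lay near 49 untreated (35.5% of all genes). With a difference of 5 percentage points, Gtf3c1 was higher at 2 and lower at 7, Rpc155 lower at 3, H3K4me1 higher at 6, and H3K27ac higher at 12 and lower at 2. Counts of any higher or lower body share under other settings were chosen after seeing the data. Shares of all genes were not computed under other settings for members in 1 list alone or past 5 or 10 percentage points. Those counts describe the members only.

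The Gtf3c1 direction, more members lower than higher, held at the stricter q, with equal list lengths and without 2 kb at each end. The direction of both marks, more members higher than lower, held at the stricter q and with equal list lengths. It turned without 2 kb at each end. H3K4me1 was then higher at 35 members and lower at 40 (40.2% and 34.0% of all genes long enough). H3K27ac was then higher at 27 members and lower at 30 (27.3% and 16.0%). The order of the conditions in the near counts turned with equal list lengths for Rpc155 and for Gtf3c1. Gtf3c1 then lay near 58 members with KCl and 56 untreated (56.5% and 55.3% of all genes). It lay near 6 in the KCl list alone and near 4 in the untreated list alone. No paired analysis was possible because each antibody and condition has 1 list and the labels carry no replicate numbers.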
